A study of Mus musculus with 24 samples.

Results

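The 35 genes described here belong to the type I interferon response, and were taken by symbol from a fixed list of interferon-stimulated genes. All 35 were found among the 23955 gene symbols with deposited counts, and all 35 were among the 15080 genes that passed the filter on low counts. RNA was measured by stranded mRNA sequencing in 24 mouse kidney libraries, in 6 groups of 4. Wild type libraries (PLD4+/+, here WT) and libraries labelled Pld4 knockout (PLD4-/-, here KO) were each made from control kidney (day 0) and from kidney taken 5 or 10 days into unilateral ureteral obstruction, a surgical block of urine outflow that leads to inflammation and fibrosis. The series asked how the loss of phospholipase D4 changes the kidney at rest and after obstruction. The labels give no age, sex, strain, knockout allele or batch of surgery, and they do not say whether the 4 libraries of a group are separate animals, so p-values measure only the spread between these libraries.

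Type I interferons bind the receptor made of Ifnar1 and Ifnar2, whose kinases Jak1 and Tyk2 phosphorylate transcription factors such as Stat2. Together with Irf9, Stat2 acts in a complex that binds interferon-stimulated response elements in the promoters of its target genes, and the products degrade viral RNA, block viral entry and translation, or raise the level of the sensors and of Irf7, which feeds back on interferon production. Phospholipase D4 is an exonuclease of endolysosomes in myeloid and plasmacytoid cells, where it degrades single-stranded nucleic acids that would otherwise be ligands of the endosomal Toll-like receptors Tlr7 and Tlr9.

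Promoters of members that moved together are printed to show the response element where it was found and 1 window where it was not. The windows are RefSeq sequences on GRCm38.p6, from 250 bases before to 50 bases after the start, and 25 of the 35 members had one. The element was searched on both strands as GAAA followed, after any 2 bases, by GAAA again, with overlapping matches joined, and each match is in capitals. It was present for 14 of these 25 members (56%), beside 3.99% of all 27025 genes with a window. The gamma-activated site, searched as TTCNNNGAA on both strands, was present for 6 of the 25 (24%), beside 9.55% of all genes. Isg15, Ifit1 and Phf11a are shown as members with a match and a large genotype difference at day 0. Oas3, with a match and a larger difference, is not shown. Oasl1 and Irf7 differed by more than Isg15, hold no match and are not shown either. Rsad2 and Cmpk2 are shown because these neighbours on chromosome 12 had a pattern across groups in CPM unlike that of the others.
Isg15 (chr4:156200769-156201068, minus strand): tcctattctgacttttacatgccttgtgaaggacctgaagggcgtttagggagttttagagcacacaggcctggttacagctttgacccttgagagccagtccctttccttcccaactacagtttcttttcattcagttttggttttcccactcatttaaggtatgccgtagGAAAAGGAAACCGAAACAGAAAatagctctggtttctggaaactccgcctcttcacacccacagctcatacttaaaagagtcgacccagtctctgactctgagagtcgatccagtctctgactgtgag
Ifit1 (chr19:34640639-34640938, plus strand): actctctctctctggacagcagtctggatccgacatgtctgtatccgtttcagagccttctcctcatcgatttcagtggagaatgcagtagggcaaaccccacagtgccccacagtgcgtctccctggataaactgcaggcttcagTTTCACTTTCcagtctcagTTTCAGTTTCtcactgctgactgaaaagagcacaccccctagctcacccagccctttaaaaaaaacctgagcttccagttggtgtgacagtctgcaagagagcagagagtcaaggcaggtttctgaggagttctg
Phf11a (chr14:59297473-59297772, minus strand): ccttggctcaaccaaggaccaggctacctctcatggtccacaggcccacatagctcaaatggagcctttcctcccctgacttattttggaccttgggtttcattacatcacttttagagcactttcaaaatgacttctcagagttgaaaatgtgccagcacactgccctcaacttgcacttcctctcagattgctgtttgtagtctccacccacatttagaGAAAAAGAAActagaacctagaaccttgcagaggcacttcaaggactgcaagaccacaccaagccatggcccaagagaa
Rsad2 (chr12:26456403-26456702, minus strand): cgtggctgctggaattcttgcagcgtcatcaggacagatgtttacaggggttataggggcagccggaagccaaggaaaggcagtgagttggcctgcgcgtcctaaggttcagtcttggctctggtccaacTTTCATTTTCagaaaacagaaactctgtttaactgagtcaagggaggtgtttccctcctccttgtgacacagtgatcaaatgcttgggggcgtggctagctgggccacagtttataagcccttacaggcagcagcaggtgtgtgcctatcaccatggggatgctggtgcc
Cmpk2 (chr12:26468965-26469264, plus strand): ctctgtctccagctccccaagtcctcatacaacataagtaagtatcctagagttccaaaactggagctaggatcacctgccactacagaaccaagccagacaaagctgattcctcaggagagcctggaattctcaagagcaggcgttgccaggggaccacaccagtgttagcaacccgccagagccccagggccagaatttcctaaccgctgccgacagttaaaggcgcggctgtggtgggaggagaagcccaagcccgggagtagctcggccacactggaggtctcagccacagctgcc
Isg15 had 3 overlapping matches, with first bases at -78, -72 and -66 from the start. Ifit1 had matches at -104 and -85, Phf11a at -29 and Rsad2 at -120, while the Cmpk2 window held none. Irf7, Irf9, Ifit2, Oasl1, Oasl2, Lgals3bp, Herc6, Ifi35, Ifi44 and Xaf1 also had no match in their windows, although all but Ifi35 were called higher in KO than in WT kidney at day 0. At day 0 the median log2 difference between genotypes was 1.67 over the 14 members with a match and 1.37 over the 11 without. A match is a description of these letters only.

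Total counts per library ran from 9800888 to 22542866. Levels are given in CPM, the count scaled to the library's total after TMM scaling in edgeR, and log2 fold changes are given ± their standard error (SE). Each adjusted p is that of edgeR's quasi-likelihood test, with Benjamini-Hochberg adjustment over all 15080 genes, and a gene is said to have risen, fallen or differed only where this value is under 0.05. Kidney was checked by 8 tubular and podocyte markers such as Umod and Nphs1, all with counts in every group. Their summed level was 20513 to 22232 CPM in WT and 18259 to 22159 CPM in KO at day 0, and none differed between genotypes on any day. At day 10 the sums spread widely in WT, at 4330, 355, 1670 and 8996 CPM in replicates 1 to 4, beside 3926 to 7339 CPM in KO. The missing calls at day 10 thus do not show alike tissue. Pld4 transcript was counted in every library labelled KO, at 6.70 to 12.6 CPM at day 0 beside 5.10 to 8.25 CPM in WT. At day 5 it was at 13.4 to 32.6 CPM in KO and 46.6 to 50.9 CPM in WT, and at day 10 at 24.3 to 50.3 and 54.6 to 117 CPM, where it was lower in KO (-1.13 ± 0.27, adjusted p = 0.0331), though not past the threshold without WT day 10 replicates 2 and 3 (-0.74, adjusted p = 0.715). The labels do not say which part of the gene was deleted, so its level at day 0 checks nothing, and KO stands for the label throughout. Of all libraries, WT day 10 replicates 2 and 3 stood apart by neutrophil markers, with a summed 3685 and 6349 CPM against 25.4 to 26.3 CPM in the other 2 libraries of the group, and counts of members at day 10 are given with and without them. Replicates 2 and 3 of WT day 10 also had the lowest kidney marker sums of all libraries.

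In CPM, the level of the 35 genes was lowest in resting wild type kidney and similar in 3 other groups. WT day 0 had the lowest mean of the 6 groups for 35 of 35 members, and KO day 10 had the highest for 30. The mean log2 CPM of the 35 members was 2.99 ± 0.259 (SD, n = 4) in WT day 0, 4.77 ± 0.256 in KO day 0, 4.86 ± 0.181 in WT day 5 and 4.91 ± 0.267 in KO day 5. It was 5.00 ± 0.764 in WT day 10 and 5.72 ± 0.313 in KO day 10. Control KO kidney thus stood near obstructed WT kidney on this measure. The mean CPM of a member in KO day 0 was at a median of 92.5% of its mean in WT day 5 (range 36.2% to 219%), and above it for 15 of 35. For Rsad2, Ifi44, Cmpk2 and Herc6 every KO day 0 library was above every WT day 5 library, and for Irf9, Ddx58, Ifi27l2a, Trim30a and Ifitm3 every one was below. The wide SD of WT day 10 came with 1 library. Replicate 3 had the highest value of its group for 35 of 35 members and a mean log2 CPM of 6.14, while the other 3 libraries were at 4.50 to 4.72. On a scale per transcript length, the deposited FPKM, Ifitm3 had the highest mean level of the members in every group, from 33.2 in WT day 0 to 338 in WT day 10, and Oas3 the lowest in WT day 0 at 0.0455. The median of the members' mean FPKM was 1.86 in WT day 0, 6.47 in KO day 0 and 8.33 in WT day 5. Every KO day 0 library was still above every WT day 5 library for Rsad2 (10.2 to 13.0 beside 6.89 to 9.15). Ifi44, Cmpk2 and Herc6 overlapped (2.93 to 4.32 beside 3.18 to 3.95 for Herc6). The place of KO day 0 beside WT day 5 thus depended on the scale. The 2 scales differed over all genes, not for the members alone. From day 0 to day 5 in WT the median change over all genes was 0.53 on log2(FPKM + 1), beside 0.08 by edgeR.

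**Figure D1:**
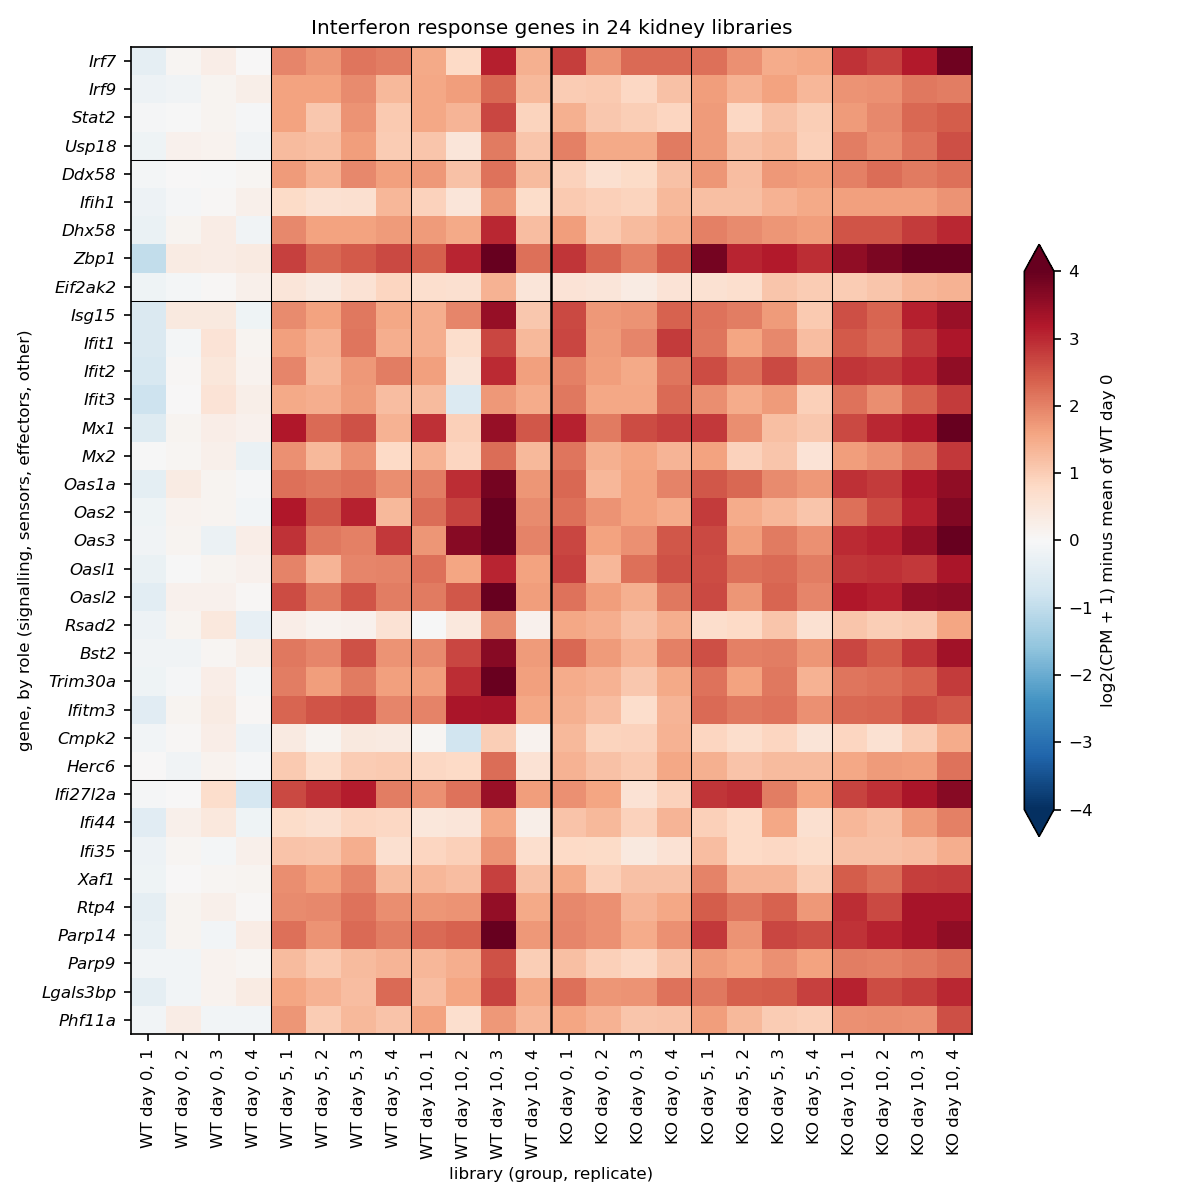
Level of the 35 members (rows, by role) in each of the 24 libraries (columns), as log2(CPM + 1) minus the mean of the 4 WT day 0 libraries, with the colour scale ending at 4 in each direction. The WT day 0 columns are palest, the KO day 0 columns resemble the day 5 columns of both genotypes, and WT day 10 replicate 3 is darkest within its group.

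The comparison of genotypes at day 0 asks what differed before any obstruction. Of the 35 members, 32 were higher in KO (3.65% of all genes tested were called higher), and none was lower. The median log2 difference was 1.85, beside 0.01 over all genes tested, and every KO library was above every WT library for 34 members (10.5% of all genes). All 17 effectors, all 4 signalling genes, 4 of 5 sensors and 7 of 9 other genes were called. Oas3, an oligoadenylate synthetase that activates RNase L (3.72 ± 0.79), and Mx1, a dynamin-like GTPase that traps viral nucleocapsids (3.62 ± 0.66), had the largest differences. The 3 members not called were Eif2ak2 (0.50 ± 0.18, adjusted p = 0.125), Ifi35 (0.66 ± 0.21, 0.0839) and Ifi27l2a (1.31 ± 0.43, 0.0997). The count was 25 to 32 when single libraries were left out.

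Leukocyte markers moved with this difference. All 4 general leukocyte markers (Ptprc, Cd52, Laptm5, Coro1a) were higher in KO at day 0, with a summed 108 to 159 CPM beside 28.2 to 47.2 CPM in WT. Macrophage and monocyte markers were higher for 7 of 10 (279 to 359 CPM beside 144 to 212 CPM), T and NK cell markers for 6 of 8 (20.3 to 36.2 CPM beside 4.00 to 8.68 CPM), B and plasma cell markers for 2 of 5, and 1 of 5 tested plasmacytoid and 1 of 6 conventional dendritic cell markers. None of 4 neutrophil markers differed, and no tested marker of these lists was at 0 in all libraries of a group. The part of these cells in the interferon gene levels was not tested. In bulk tissue, fewer cells of a type and less RNA per cell cannot be told apart.

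**Figure D2:**
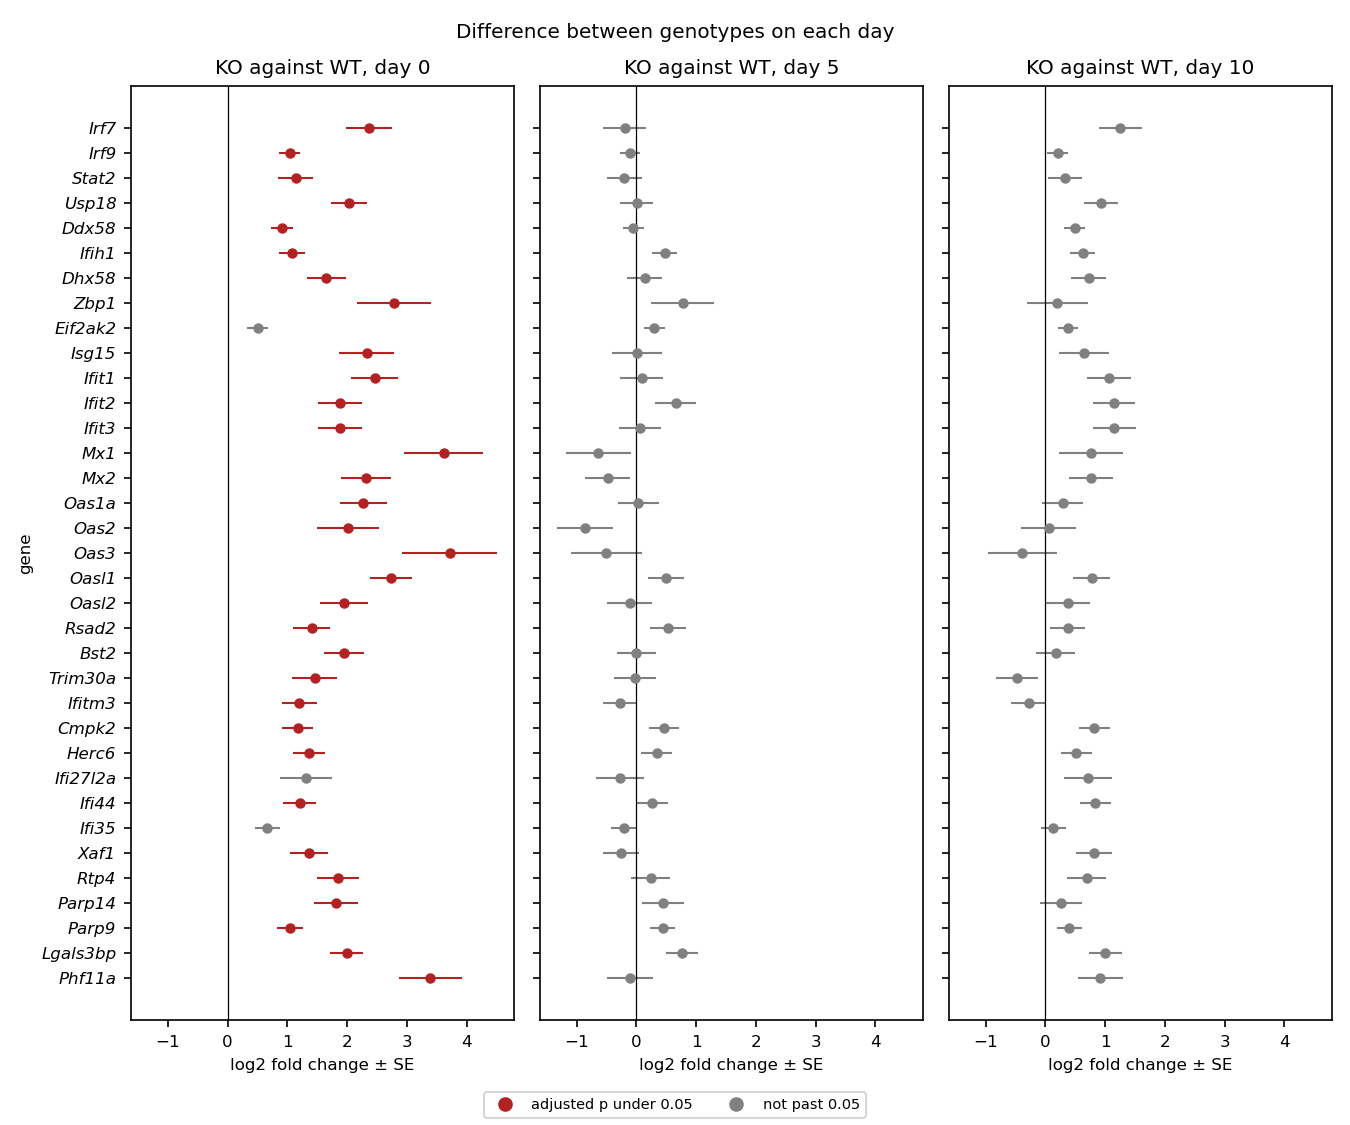
Log2 fold change of KO against WT (horizontal axis, ± SE) for each member at day 0, day 5 and day 10, with 4 libraries per group. Red points passed an adjusted p of 0.05: 32 of 35 members at day 0 and none at day 5 or day 10.

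Among the signalling genes, Irf7, the transcription factor that amplifies interferon production, had 13.2, 18.3, 21.2 and 17.4 CPM in the WT day 0 libraries and 123, 63.1, 87.9 and 87.5 CPM in the KO day 0 libraries. The groups did not overlap, and the lowest KO library was near the WT day 5 level. The difference was 2.37 ± 0.38 (log2, adjusted p = 0.000953). Under obstruction WT libraries had 70.5, 61.8, 79.0 and 75.1 CPM at day 5 and 51.3, 30.9, 158 and 48.5 CPM at day 10, where replicate 3 was high. KO libraries had 82.7, 64.2, 50.4 and 52.2 CPM at day 5 and 135, 121, 164 and 268 CPM at day 10. Irf7 thus rose in WT at day 5 (2.03 ± 0.37, adjusted p = 0.000153), while KO gave -0.54 ± 0.36 (adjusted p = 0.240) and was called only at day 10 (0.93 ± 0.36, 0.0336).

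Irf9, the DNA-binding subunit of the complex that holds Stat2, moved in both genotypes. It stood at 17.5, 18.5, 21.9 and 24.1 CPM in WT day 0, 64.2, 63.5, 77.9 and 51.9 CPM in WT day 5 and 61.9, 67.3, 103 and 51.1 CPM in WT day 10. The KO libraries had 42.3, 42.6, 36.5 and 47.1 CPM at day 0, 67.0, 54.4, 64.2 and 52.4 CPM at day 5 and 73.6, 74.5, 91.1 and 87.7 CPM at day 10. Every KO day 0 library lay between the WT day 0 and the WT day 5 libraries, and the genotypes overlapped at day 5 and day 10. The log2 difference at day 0 was 1.04 ± 0.18 (adjusted p = 0.00139).

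Stat2, the subunit of that complex with a strong activation domain, had 23.0, 23.4, 25.6 and 22.8 CPM in WT day 0 and 65.5, 51.2, 48.0 and 43.8 CPM in KO day 0, with no overlap (1.14 ± 0.29, adjusted p = 0.0282). At day 5 it had 74.1, 51.0, 84.0 and 50.0 CPM in WT and 79.6, 43.1, 54.4 and 48.0 CPM in KO, and at day 10 71.3, 62.9, 158 and 45.2 CPM in WT and 78.6, 92.3, 119 and 132 CPM in KO. The WT day 10 range held all 4 KO day 10 libraries. Usp18, the protease that removes Isg15 from proteins and dampens the receptor, was higher in KO at day 0 (2.03 ± 0.30) and had a higher mean in KO day 0 (16.4 CPM) than in WT day 5 (11.4 CPM).

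Among the sensors, Ddx58 (RIG-I, a cytosolic RNA helicase) had a narrow spread and the lowest adjusted p of the members in the WT day 5 response (1.71 ± 0.18, 2.46e-07). Its CPM was 26.5, 28.1, 27.8 and 29.3 in WT day 0 and 53.8, 43.9, 48.4 and 64.0 in KO day 0. It reached 93.5, 75.5, 109 and 88.3 CPM in WT day 5 and 97.6, 67.6, 95.7 and 91.8 CPM in KO day 5. Each day 5 library of either genotype was above all KO day 0 libraries, and Ddx58 rose in both WT and KO. At day 10 it had 96.1, 64.3, 128 and 68.6 CPM in WT and 115, 135, 120.2 and 131 CPM in KO.

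Ifih1 (MDA5, a sensor of long double-stranded RNA) had 15.8, 17.6, 18.7 and 21.1 CPM in WT day 0 and 38.4, 35.8, 34.7 and 46.0 CPM in KO day 0 (1.08 ± 0.22, adjusted p = 0.00468). At day 5 the WT libraries had 31.7, 28.4, 29.1 and 47.6 CPM, with replicate 4 apart from the rest, and the KO libraries 43.2, 43.3, 49.8 and 53.4 CPM. At day 10 they had 35.6, 25.7, 65.0 and 31.0 CPM in WT and 59.0, 58.8, 58.4 and 66.2 CPM in KO. In KO, day 5 was not called (0.29 ± 0.21, adjusted p = 0.278) and day 10 was (0.65 ± 0.21, 0.0136).

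Eif2ak2 (PKR, the kinase that halts translation on double-stranded RNA) had the smallest genotype difference of the members at day 0. It stood at 19.5, 21.1, 23.1 and 25.7 CPM in WT day 0 and 33.1, 31.9, 28.4 and 33.3 CPM in KO day 0, so that all KO libraries were above all WT libraries although the adjusted p was 0.125. Obstructed WT kidney had 31.2, 28.6, 33.9 and 40.9 CPM at day 5 and 36.2, 34.9, 60.1 and 31.5 CPM at day 10, and KO kidney 34.2, 36.4, 49.7 and 45.6 and 45.6, 48.9, 56.9 and 60.2 CPM. The change in WT was called on both days, and the change in KO at day 10 alone. Zbp1, a sensor of Z-form nucleic acid that can start necroptosis, differed more at day 0 (2.79 ± 0.62), and Dhx58 (LGP2), a regulator of the other helicases, differed by 1.65 ± 0.32.

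Among the effectors, Ifitm3, a membrane protein that blocks the fusion of virus with endosomes, was the most abundant. It had 21.4, 32.1, 37.5 and 30.5 CPM in WT day 0 and 82.2, 70.7, 48.7 and 78.0 CPM in KO day 0 (1.20 ± 0.29, adjusted p = 0.0200). At day 5 it had 152, 176, 189 and 118 CPM in WT and 146, 131, 139 and 107 CPM in KO. Obstruction raised it in both genotypes. At day 10 the WT values were 119.7, 295, 299.5 and 89.6 CPM, with replicates 2 and 3 well above the other 2, and the KO values were 151, 153, 185 and 173 CPM.

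Bst2 (tetherin, which holds budding virus at the cell surface) had 14.1, 14.0, 16.6 and 18.5 CPM in WT day 0 and 81.0, 53.8, 43.2 and 65.9 CPM in KO day 0 (1.95 ± 0.34, adjusted p = 0.00191). At day 5 the genotypes overlapped, at 71.1, 63.0, 97.2 and 57.2 CPM in WT and 97.7, 66.5, 68.4 and 55.3 CPM in KO, and at day 10 they were at 60.3, 106, 208 and 53.2 CPM and 104, 89.0, 120.1 and 169 CPM. The KO libraries of day 0 and day 5 overlapped, and the change was not called (0.24 ± 0.32, adjusted p = 0.585).

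Oasl2, an oligoadenylate synthetase-like protein, had 8.47, 13.3, 13.3 and 12.1 CPM in WT day 0 and 56.4, 39.6, 32.6 and 53.8 CPM in KO day 0 (1.95 ± 0.41, adjusted p = 0.00659). Its values at day 5 were 75.5, 52.4, 71.5 and 51.3 CPM in WT and 78.4, 42.0, 62.9 and 48.4 CPM in KO, and at day 10 51.9, 70.2, 239 and 39.3 CPM and 116, 109, 143 and 149.8 CPM. WT day 10 replicate 3 was above every other library. The ubiquitin-like modifier Isg15 differed by 2.33 ± 0.46 at day 0, and the RNA-binding proteins Ifit1, Ifit2 and Ifit3, which block the translation of viral RNA, by 2.46 ± 0.40, 1.88 ± 0.37 and 1.88 ± 0.37. Counts of near-identical family members (Ifit, Oas, Oasl, Trim30, Phf11 and Ifi27l2 genes) are uncertain where reads could fall on a copy, and whether strand was used in counting is not given in the sources used here.

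Oas3 and Mx1, the members with the largest differences at day 0, were close to the lower limit of detection in resting WT kidney. Oas3 had 0.259, 0.510, 0.179 and 0.688 CPM in WT day 0 and 7.90, 3.22, 3.96 and 6.78 CPM in KO day 0, and Mx1 had 0.259, 0.935, 1.17 and 1.03 CPM and 14.3, 6.57, 9.98 and 11.0 CPM. Neither overlapped. Obstruction took Mx1 to 15.8, 7.61, 9.54 and 3.77 CPM in WT and 12, 5.52, 3.19 and 2.83 CPM in KO at day 5, so that the KO day 5 libraries reached below the KO day 0 range. At day 10 Mx1 stood at 12.7, 2.54, 19.1 and 9.10 CPM in WT and 10.3, 13.5, 16.1 and 33.8 CPM in KO.

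Isg15, whose promoter above holds 3 overlapping elements, had 2.94, 6.72, 6.73 and 4.21 CPM in WT day 0, 35.7, 18.7, 19.3 and 29.5 CPM in KO day 0 and 20.8, 16.9, 24.6 and 16.1 CPM in WT day 5. The KO day 0 libraries overlapped the WT day 5 libraries and lay above all WT day 0 libraries. Later KO libraries had 25.6, 23.6, 18.2 and 11.2 CPM at day 5 and 34.6, 28.9, 50.2 and 64.3 CPM at day 10. Ifit1 had 3.98, 6.12, 9.87 and 7.05 CPM in WT day 0, 47.0, 23.0, 27.6 and 50.6 CPM in KO day 0 and 22.2, 18.6, 31.9 and 19.4 CPM in WT day 5. In KO it had 32.2, 21.5, 27.4 and 16.5 CPM at day 5 and 40.2, 34.9, 51.8 and 69.8 CPM at day 10. Its mean in KO day 0 was 161% of that in WT day 5.

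Further effectors and other genes differed at day 0. Oasl1, a translational brake on Irf7, differed by 2.73 ± 0.35, with the lowest adjusted p of the members (0.000117), and the synthetases Oas1a and Oas2 by 2.27 ± 0.40 and 2.02 ± 0.52. Mx2 differed by 2.32 ± 0.42, Herc6, the ligase that attaches Isg15, by 1.36 ± 0.27 and Trim30a by 1.46 ± 0.37. Xaf1, a pro-apoptotic factor, differed by 1.37 ± 0.32, Rtp4, a chaperone of receptors, by 1.85 ± 0.35 and Ifi44 by 1.20 ± 0.27. All of these were called.

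Rsad2 (viperin, a radical enzyme that makes a chain-terminating nucleotide) and its neighbour Cmpk2, the kinase that supplies the substrate, had another order of groups in CPM. Rsad2 had 25.5, 32.0, 39.9 and 23.0 CPM in WT day 0, 35.4, 32.2, 33.5 and 44.2 CPM in WT day 5 and 87.2, 82.5, 67.3 and 82.0 CPM in KO day 0. The WT day 0 and day 5 libraries overlapped, whereas every KO day 0 library was above both. KO obstruction brought 49.1, 51.5, 64.7 and 45.0 CPM at day 5 and 65.2, 58.7, 61.7 and 90.6 CPM at day 10. For Cmpk2 the values were 14.9, 17.0, 19.9 and 14.0 CPM in WT day 0, 21.4, 17.6, 21.5 and 21.1 CPM in WT day 5 and 41.5, 31.0, 31.5 and 44.0 CPM in KO day 0. In CPM both had their highest group mean in KO day 0, unlike the other 33 members, though their KO day 0 and day 10 libraries overlapped. On the deposited FPKM both had it in KO day 10. The means there were 15.7 for Rsad2 and 9.41 for Cmpk2, beside 11.9 and 6.63 in KO day 0. From day 0 to day 10 in KO the median change over all genes was 0.51 on log2(FPKM + 1), beside 0.04 by edgeR. At day 0 Rsad2 and Cmpk2 were higher in KO (1.40 ± 0.30 and 1.17 ± 0.26), yet neither rose in WT at day 5 (0.27 ± 0.30 and 0.31 ± 0.26). By another test, limma on log2(FPKM + 1), all 35 members were called higher in WT at day 5. The median over all genes in that fit was 0.53, beside 0.08 by edgeR. Its share of all genes called is not given, so this count does not set the members apart from all genes. At day 10 of WT, Rsad2 had 29.2, 39.7, 111 and 33.6 CPM and was called (0.82 ± 0.30, adjusted p = 0.0197), but without replicate 3 it gave 0.21 (adjusted p = 0.332). Cmpk2 had 17.4, 9.13, 33.0 and 18 CPM there and was not called.

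Among the other induced genes, Lgals3bp, a secreted glycoprotein that binds galectin-3, had 47.6, 55.9, 67.6 and 76.7 CPM in WT day 0 and 283, 211, 212 and 277 CPM in KO day 0 (1.99 ± 0.28, adjusted p = 0.000334). At day 5 it had 184, 162, 143 and 296 CPM in WT and 268, 321, 328 and 411 CPM in KO, and at day 10 144, 183, 406 and 175 CPM in WT and 520.4, 381, 416 and 505 CPM in KO. Replicate 3 alone brought WT day 10 into the KO range. Without that library the day 10 difference was 1.44 ± 0.23 (adjusted p = 0.00301), beside 1.00 ± 0.27 (0.0724) with it.

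Parp14, an ADP-ribosyltransferase, had 16.0, 21.3, 18.4 and 24.7 CPM in WT day 0, 94.3, 70.8, 99.4 and 84.6 CPM in WT day 5 and 98.9, 107, 369 and 67.6 CPM in WT day 10. Its KO values were 79.7, 72.2, 57.6 and 72.8 CPM at day 0, 148, 72.0, 131 and 123 CPM at day 5 and 154, 174, 206 and 240.0 CPM at day 10. The KO day 0 and day 5 ranges met at replicate 2 of day 5, and that change was not called (adjusted p = 0.0990). Parp9, which acts in a complex with an E3 ligase, had 23.6, 23.6, 28.4 and 27.0 CPM in WT day 0, 60.5, 50.4, 45.9 and 55.7 CPM in KO day 0, 62.7, 54.4, 62.9 and 67.4 CPM in WT day 5 and 85.8, 77.8, 92.7 and 79.4 CPM in KO day 5. At day 10 it had 65.3, 72.0, 154 and 52.0 CPM in WT and 109.6, 107, 113 and 125 CPM in KO. Parp9 was 1 of the 5 members that rose in KO at day 5 (0.66 ± 0.21, adjusted p = 0.0189). Phf11a, the member with the fewest counts, had 0.0865, 0.425, 0.0897 and 0.0859 CPM in WT day 0 and 2.49, 2.03, 1.52 and 1.56 CPM in KO day 0.

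**Figure D3:**
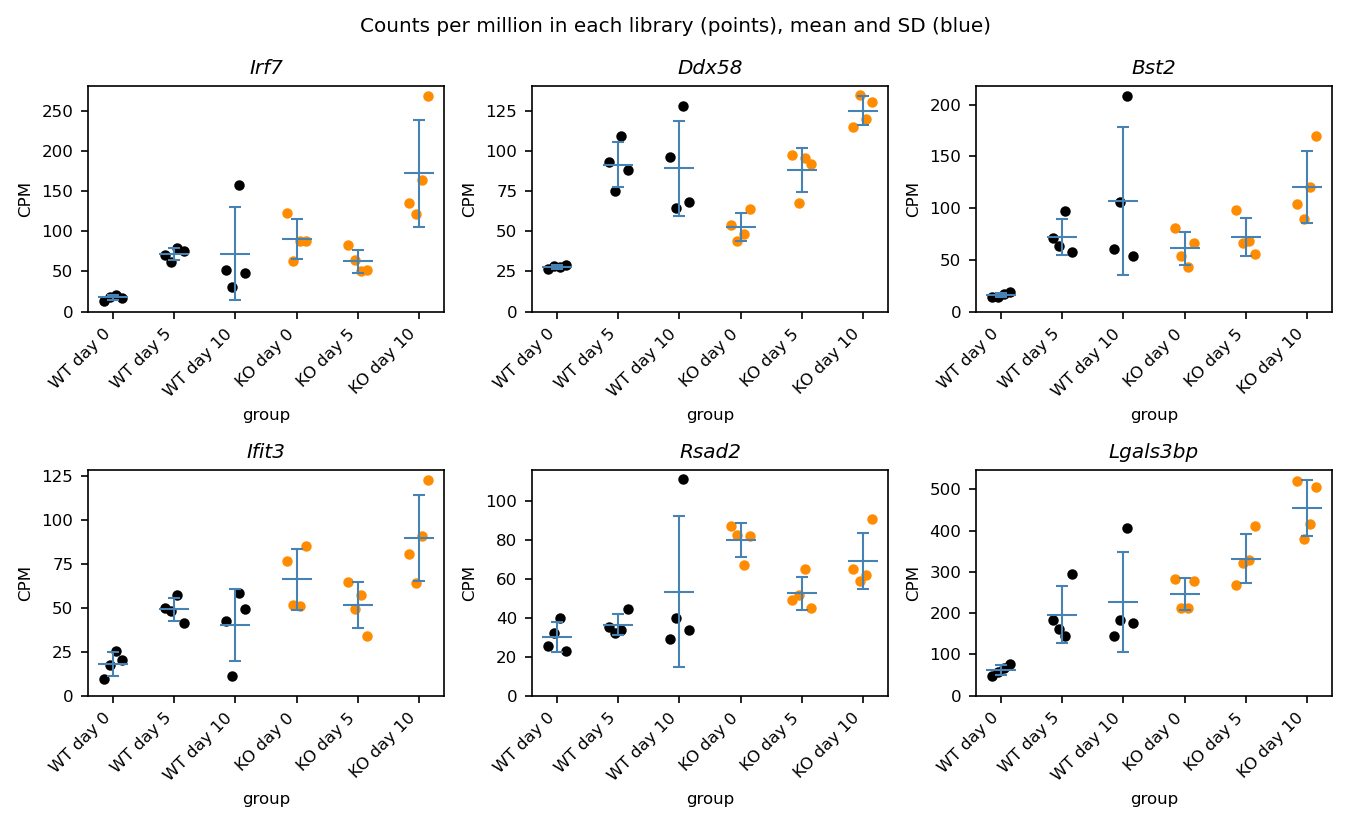
CPM of 6 members in each library (points, black for WT and orange for KO), with the mean and SD of each group of 4 in blue. For Rsad2 the KO day 0 points lie above the WT day 0 and WT day 5 points, and replicate 3 is the highest of the 4 WT day 10 points in all 6 panels.

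In WT kidney, obstruction raised nearly all members. At day 5, 33 of 35 were higher than at day 0 (31% of all genes were called higher), with a median log2 change of 1.93, beside 0.08 over all genes, and the groups did not overlap for 33 (28.2% of all genes). The largest changes were those of Oas3 (4.08 ± 0.78), Mx1 (3.42 ± 0.66) and Phf11a (3.42 ± 0.52), and the 2 members not called were Rsad2 and Cmpk2. At day 10, 34 were higher (37.8%), with a median of 2.04 and with no overlap for 31 (32.4%). Oas3 (5.53 ± 0.79) and Zbp1 (4.30 ± 0.63) changed most, at 4.32 and 2.96 without WT day 10 replicate 3, where Phf11a (3.31) and Mx1 (3.28) stood above Zbp1. With all libraries, the smallest values were those of Ifi44 (0.79 ± 0.27), which was called, and Cmpk2 (0.24 ± 0.26), which was not. Ifi44 and Rsad2 were not called without WT day 10 replicate 3 (0.41 and 0.21). Leukocyte markers rose as well, for 4 of 4 on both days, from a summed 28.2 to 47.2 CPM at day 0 to 246 to 315 CPM at day 5 and 285 to 1484 CPM at day 10, and their part was not tested. Between day 5 and day 10 of WT no member was called by edgeR (7.86% of all genes were called higher and 2.93% lower), 6 had an unadjusted p under 0.05, DESeq2 called 2 and limma none, and the median was 0.27. The sign of this median rested on WT day 10 replicate 3: it was -0.24 without that library and -0.25 without replicates 2 and 3. With all libraries, fitted values ran from -0.29 ± 0.35 for Ifit3 and -0.27 ± 0.41 for Ifi27l2a to 1.40 ± 0.53 for Zbp1 and 1.45 ± 0.59 for Oas3, and the last 2 were 0.03 and 0.21 without replicate 3. Leaving out WT day 10 replicate 1 gave 3 calls, and leaving out replicate 4 gave 6.

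In KO kidney the same comparison at day 5 called 5 members, Ddx58, Irf9, Ifitm3, Parp9 and Ifi27l2a, all higher (22.4% of all genes were called higher). The median log2 change was 0.27, beside 0.01 over all genes. Ifi27l2a, a small mitochondrial protein, changed most (1.20 ± 0.42, adjusted p = 0.0274), from 33.1, 27.6, 13.2 and 17.1 CPM to 69.1, 73.2, 38.1 and 27.3 CPM, and its groups overlapped. Fitted changes below 0 were found for 14 of 35, the lowest for Mx1 (-0.84 ± 0.55) and its paralogue Mx2 (-0.69 ± 0.38), and none of these was called. Day 5 libraries were all above day 0 libraries for 8 members (22%) and all below for 2 (17.5%). Over the same interval 3 of 4 leukocyte markers rose in KO, from a summed 108 to 159 CPM to 293 to 351 CPM. The number of calls depended on the fit: it was 1 without KO day 0 replicate 3, 14 (13 higher, with Rsad2 lower) with the KO day 0 and day 5 libraries alone, where 24% of all genes were called higher and 19.5% lower, and 14 (12 higher, with Rsad2 and Usp18 lower) without WT day 10 replicates 2 and 3 (26.1% higher and 20.7% lower). On log2(FPKM + 1) limma called 21, where 60.6% of all genes were called higher and the median over all genes was 0.47.

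By day 10, 24 members were higher in KO than at day 0 (28.3% of all genes were called higher), with a median of 0.98 and no overlap for 24 (29.9%). All 5 sensors, 3 of 4 signalling genes, 8 of 9 other genes and 8 of 17 effectors were called. Ifi27l2a (1.91 ± 0.42) and Zbp1 (1.72 ± 0.54) changed most. The 11 not called were Isg15, Ifit1, Ifit3, Mx1, Mx2, Oasl1, Rsad2, Cmpk2, Herc6, Ifi44 and Usp18, and among these Rsad2 and Cmpk2 had fitted values below 0 (-0.21 ± 0.30 and -0.11 ± 0.25). From day 5 to day 10 in KO, edgeR called none (0.0199% of all genes were called higher), although all 35 fitted changes were above 0, with a median of 0.75, and 21 had an unadjusted p under 0.05. Mx1 (1.65 ± 0.55) and Oas3 (1.58 ± 0.60) had the largest and Cmpk2 (0.29 ± 0.25) and Ifitm3 (0.34 ± 0.29) the smallest. Day 10 libraries were all above day 5 libraries for 21 members (4.36%). DESeq2 called 2 and limma none, and without WT day 10 replicates 2 and 3 edgeR called 8 (0.307%), among them Irf7, Usp18, Xaf1 and Oas3.

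**Figure D4:**
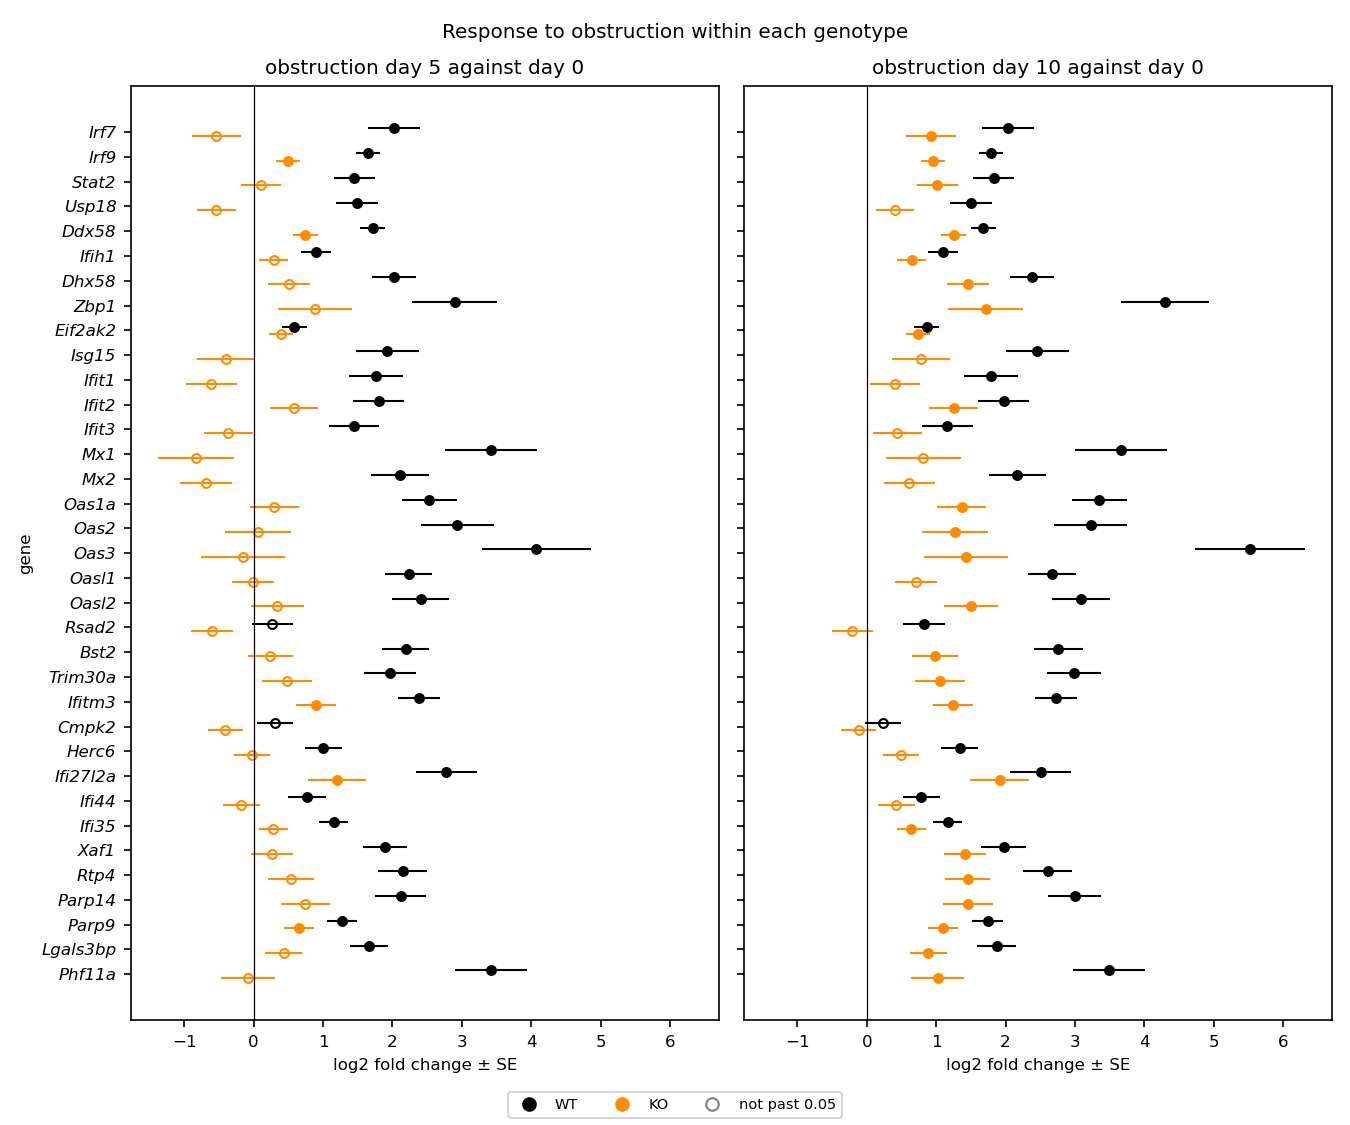
Log2 fold change against day 0 of the same genotype (horizontal axis, ± SE) for each member at day 5 and day 10 in WT (black) and KO (orange). Filled points passed an adjusted p of 0.05: 33 members in WT and 5 in KO at day 5, and 34 in WT and 24 in KO at day 10.

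Between genotypes under obstruction no member was called by edgeR with all libraries. At day 5 edgeR called 0 of 35 in either direction (0.0663% of all genes were called higher and 0.0796% lower), with a median log2 difference of 0.01, 2 unadjusted p-values under 0.05 and no call by DESeq2 or limma. The mean CPM in KO was at a median of 100% of the WT mean (55.1% to 171%). Fitted values ran from -0.86 ± 0.47 for Oas2 and -0.64 ± 0.54 for Mx1 to 0.77 ± 0.53 for Zbp1 and 0.76 ± 0.27 for Lgals3bp, and KO libraries were all above WT libraries for 7 members (2.73%). Leaving out WT day 5 replicate 4 gave 2 calls. A p that misses the threshold does not show that the genotypes are alike: for Isg15 the difference was 0.01 ± 0.42, and its SE leaves room for a change in either direction.

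At day 10 edgeR called none (0.139% of all genes higher and 1.27% lower), but 32 of 35 fitted differences were above 0, 17 had an unadjusted p under 0.05, and the median was 0.62. The largest were Irf7 (1.26 ± 0.36, adjusted p = 0.0897) and Ifit2 (1.16 ± 0.35, 0.107), and the lowest were Trim30a, a regulator of Toll-like receptor signalling (-0.47 ± 0.35), and Oas3 (-0.38 ± 0.57). Both of these turned positive without WT day 10 replicate 3 (0.19 and 0.84) and without replicates 2 and 3 (0.77 and 1.84). KO libraries were all above WT libraries for 2 members (1.49%). WT day 10 replicate 3 decided the count. It had the highest value of its group for 35 of 35 members, so leaving it out raises the differences by construction. Without it, 21 members were higher in KO (0.692% of all genes), with a median of 1.16, and without replicates 2 and 3 together 17 were (0.399%), with a median of 1.10, in fits where the remaining WT libraries are assumed to vary like the other groups. Irf7 then differed by 1.97 ± 0.28 (adjusted p = 0.00136) and 1.78 ± 0.30 (0.00636). Leaving out WT day 10 replicate 4 gave 2 calls, DESeq2 on all libraries gave 5, and limma on log2 FPKM gave 2 to 4. All 4 neutrophil markers were lower in KO at day 10 with all libraries. Their summed level was 3685 and 6349 CPM in WT replicates 2 and 3. It was 26.3 and 25.4 CPM in WT replicates 1 and 4, and 10.6 to 21.7 CPM in KO. Their calls without replicates 2 and 3 are not given. None of 4 leukocyte markers differed. Replicates 2 and 3 had a summed leukocyte level of 836 and 1484 CPM, beside 285 and 341 CPM in the other WT libraries and 342 to 516 CPM in KO. The part of these cells was not tested.

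The response to obstruction was tested for a difference between genotypes. At day 5 the response of 8 members was smaller in KO (0.531% of all genes were called lower): Irf7 (-2.57 ± 0.52), Irf9 (-1.15 ± 0.24), Usp18 (-2.03 ± 0.41), Ifit1 (-2.37 ± 0.53), Mx1 (-4.26 ± 0.86), Mx2 (-2.80 ± 0.56), Oasl1 (-2.24 ± 0.46) and Phf11a (-3.50 ± 0.66). Their adjusted p-values were 0.0165 to 0.0433. All 35 fitted values were below 0, with a median of -1.58, and 30 had an unadjusted p under 0.05. Eif2ak2 (-0.20 ± 0.25) and Parp9 (-0.61 ± 0.30) had the smallest, and Oas3 (-4.22 ± 1.00) missed the threshold with an adjusted p of 0.0542. These values hold the difference at day 0 by construction, since the day 0 libraries enter both the response and the baseline comparison. The number of calls moved with single libraries, while the median stayed between -1.45 and -1.74. It was 0 without WT day 0 replicate 1, 1 without KO day 0 replicate 1 or KO day 5 replicate 2 or 3, 2 without WT day 5 replicate 3, 3 without KO day 5 replicate 4 or replicate 4 of WT day 0, 4 without KO day 0 replicate 4 or replicate 2 of WT day 0, 5 without WT day 5 replicate 1, 14 without KO day 5 replicate 1 and 21 without WT day 5 replicate 4. It was 29 with the 4 groups compared alone and 30 without WT day 10 replicates 2 and 3 (3.9% of all genes were called lower). The share of all genes called lower thus moved as well, from 0.531% with all libraries. It is not given for the other fits, so these counts alone do not set the members apart from all genes.

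At day 10 the response of 7 members was smaller in KO (3.12% of all genes were called lower): Ifitm3 (-1.48 ± 0.41), Bst2 (-1.77 ± 0.47), Trim30a (-1.93 ± 0.51), Oas1a (-1.98 ± 0.52), Oas3 (-4.10 ± 0.99), Oasl1 (-1.96 ± 0.45) and Phf11a (-2.47 ± 0.66). Oasl1 and Phf11a were called on both days, and no signalling gene or sensor was called at day 10. All 35 fitted values were below 0, with a median of -1.09 and 24 unadjusted p-values under 0.05. Eif2ak2 (-0.12 ± 0.25) and Cmpk2 (-0.35 ± 0.36) had the smallest, and Mx1 (-2.85 ± 0.84) was not called. The count was 2 with the replicate block, 0 with the 4 groups compared alone and 0 with limma on log2 FPKM. Without WT day 10 replicates 2 and 3 the median was -0.53, the values of Eif2ak2, Ifi27l2a and Ifi44 turned positive (0.12, 0.12 and 0.07), and Oasl1 alone was called (-1.65 ± 0.40, adjusted p = 0.0488; 0.974% of all genes lower). Single libraries also moved the count, which was 0 without WT day 0 replicate 1, 1 without WT day 0 replicate 3, KO day 0 replicate 1 or KO day 10 replicate 1, and 2 without WT day 0 replicate 4, WT day 10 replicate 3, KO day 0 replicate 4 or KO day 10 replicate 2 or 3. It was 3 without KO day 0 replicate 2, 4 without WT day 0 replicate 2 or WT day 10 replicate 2, 11 without WT day 10 replicate 1 and 16 without WT day 10 replicate 4. The change from day 5 to day 10 did not differ between genotypes for any member by edgeR, DESeq2 or limma (0% of all genes called by edgeR), with 6 unadjusted p-values under 0.05 and a median of 0.46, which was 1.00 without WT day 10 replicate 3 and 1.04 without replicates 2 and 3. With all libraries, Irf7 (1.46 ± 0.51) and Mx1 (1.41 ± 0.76) had the largest values and Zbp1 (-0.57 ± 0.74) and Trim30a (-0.44 ± 0.50) the smallest, and the last 2 turned positive without replicate 3 (0.80 and 0.24).

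The genes around the response moved less evenly. Of 19 interferon ligands with an entry in the counts, Ifng, the type II interferon, was the only one to pass the filter. Ifnb1, which encodes interferon beta, had no count at day 0 or day 5 in either genotype, 1, 0, 0 and 0 counts in the WT day 10 libraries and 1, 0, 1 and 1 in the KO day 10 libraries. Ifna5 and Ifna11 each had 1 count in 1 library, Ifnab 1 count in KO day 0 and 3 in WT day 10, and Ifnz 0 to 3 counts per library, while the other ligands of the list, Ifng aside, had none. Type I interferon mRNA was thus at or below what this depth can resolve. Ifng had 0, 0, 1 and 0 counts in WT day 0, 5, 2, 1 and 4 in KO day 0, 15, 12, 10 and 18 in KO day 10 and 2, 2, 93 and 3 in WT day 10, where replicate 3 was again the high library and carried nearly all counts behind the call of day 10 against day 0, which was lost without it (adjusted p = 0.0787). KO against WT at day 10 gave -0.88 for Ifng with all libraries (adjusted p = 0.631). Without replicate 3 it was called higher in KO (2.66, 0.0118), and without replicates 2 and 3 it was not (2.56, 0.0699).

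None of the 9 receptor chains and kinases differed between genotypes at day 0. At day 5, 7 of 9 rose in WT (31% of all genes were called higher) and 4 of 9 in KO (22.4%). Among them was Ifnar2 (1.16 ± 0.23 in WT and 0.71 ± 0.23 in KO). Among the further transcription factors and regulators described here, Irf1 (1.67 ± 0.44) and Irf8 (0.98 ± 0.24) were higher in KO at day 0. Of 16 adaptors, sensors and kinases upstream of interferon, 4 were higher in KO at day 0 (3.65% of all genes were called higher). These were the endosomal receptors Tlr7 (1.79 ± 0.33), Tlr8 (3.14 ± 0.86) and Tlr9 (2.46 ± 0.59), and their transporter Unc93b1 (1.05 ± 0.23). Tlr7 was at 1.30 to 1.72 CPM in WT day 0 and 4.42 to 6.63 CPM in KO day 0, and at 15.8 to 21.5 and 13.0 to 22.0 CPM at day 5. Its response was smaller in KO on both days (-1.98 ± 0.43 and -2.65 ± 0.43). At day 10 the same held for Tlr8, Unc93b1, the adaptor Tmem173 (STING, -1.75 ± 0.45), the kinase Ikbke (-2.71 ± 0.71) and the feedback inhibitor Socs3 (-2.76 ± 0.69), all against a WT group that holds replicates 2 and 3. Without these 2 libraries Tlr7 was called (-1.91, adjusted p = 0.00906), and Tlr8 (0.138), Unc93b1 (0.0558), Tmem173 (0.380), Ikbke (0.644) and Socs3 (0.271) were not. Under obstruction Ikbke was lower in KO at day 10 with all libraries (-2.01 ± 0.49, adjusted p = 0.0371), and gave -0.01 (adjusted p = 1.00) without the 2. Pld3, the related endolysosomal exonuclease, had -0.01 ± 0.12 (adjusted p = 0.978) between genotypes at day 0.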

How the data were processed

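The authors deposited raw counts per gene (whole numbers for 23955 symbols) and FPKM per gene (23953 symbols); all sample columns were matched to the labels. Per the labels' protocols, TRIzol RNA went into TruSeq stranded mRNA libraries. The submitters' processing notes name bcl2fastq 2.16, STAR 2.5, Cufflinks and mm9. The counting tool, the annotation and the use of strand are not given in the sources used here.

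The deposited counts were filtered with filterByExpr (minimum count 10, minimum total 15), scaled by TMM, and fitted with edgeR 4.0.16 (R 4.3.3) in 1 model of 6 group means over 24 libraries, with 18 residual degrees of freedom and robust quasi-likelihood tests. There were 12 comparisons, adjusted per comparison over 15080 genes at 0.05. Each SE was taken as the absolute log2 fold change over the square root of its F statistic. The fitting steps were tested on simulated counts with known changes. Other settings were RLE factors, other filters, DESeq2 1.42.0, limma 3.58.1 on the log2 of the deposited FPKM plus 1 or 0.1 (genes at FPKM 1 or more in 4 or more libraries, or no filter), the compared groups alone, the replicate number as a block, and libraries left out.

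The members, lists and tests were chosen with earlier results of these data known. All members are accounted for. Values in every library are given for the 3 members of each role with the highest mean CPM, and each comparison names the 2 members with the largest and the 2 with the smallest change and those that missed the threshold where at least 80% passed. Rsad2, Cmpk2, Phf11a, Isg15, Ifit1, Mx1, Oas3, Usp18 (values per library or mean) and the promoters shown were chosen after their values were seen. Of the pathway lists, up to 4 genes were named by their p in the day 5 response difference, and Tlr9, Pld3, Tmem173, Socs3, Ikbke and those higher at day 0 were added after values were seen. A gene of these lists is not reported here. What libraries with 1 replicate number share is not in the labels. Same-numbered libraries deviated together in all 4 pairs for WT day 10 against day 5 (r = 0.105 to 0.361) and KO against WT at day 10 (0.141 to 0.306), where a replicate block left the count of called members at 0. For each of the remaining 7 pairs of groups, 2 or more of the 4 correlations were not over 0.1. The block gave 2 called members for the day 10 response difference.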

Additional observations from a re-analysis of the deposited data

Results flagged for a closer look

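Within groups of 4 libraries, the highest library lay far from the other 3 by Dixon's criterion in 8 of 78 groups examined. These 78 are not independent, since the same libraries recur for genes that vary together, so no rate by chance is set beside the count. WT day 10 replicate 3 was that library for Irf7 (158 CPM), Oasl2 (239 CPM), Parp14 (369 CPM), Eif2ak2 (60.1 CPM) and Lgals3bp (406 CPM), and for the mean log2 CPM of the 35 members (6.14). Ifih1 stood out in WT day 5 replicate 4 (47.6 CPM) and in KO day 10 replicate 4 (66.2 CPM).

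The response to obstruction differed between genotypes, by the test of the difference itself, for these members. At day 5 the log2 differences (KO minus WT) were -2.57 for Irf7, -1.15 for Irf9, -2.03 for Usp18, -2.37 for Ifit1, -4.26 for Mx1, -2.80 for Mx2, -2.24 for Oasl1 and -3.50 for Phf11a. At day 10 they were -1.48 for Ifitm3, -1.77 for Bst2, -1.93 for Trim30a, -1.98 for Oas1a, -4.10 for Oas3, -1.96 for Oasl1 and -2.47 for Phf11a. Both sets share the day 0 libraries of both genotypes.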

How the results depend on the processing

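Of 8400 values of single members under other settings, 7542 kept their direction and side of the threshold, 299 changed sign with no call under either setting, 261 fell below the threshold, 296 passed it, and 2 changed sign with a call: Herc6 at day 5 in KO gave 0.46 with limma on log2(FPKM + 1) and 0.56 on log2(FPKM + 0.1). On the FPKM scale the median over all genes was 0.27 to 0.66 above 0 in the comparisons of obstruction with day 0.

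The number of members past the threshold changed as follows. For KO day 5 against day 0 it was 21 with limma on either pseudocount, 20 with no filter, 14 with the groups alone and 14 without WT day 10 replicates 2 and 3. DESeq2 gave 2 for day 10 against day 5 in each genotype, and leaving out both libraries gave 8 in KO. KO against WT at day 10 gave 5 with DESeq2, 4, 2 and 3 with limma (pseudocounts 1 and 0.1, and no filter) and 17 without both libraries. The day 5 response difference gave 19 with DESeq2, 1 with limma (pseudocount 1), 0 with no filter, 29 with the groups alone and 30 without both libraries. The day 10 response difference gave 4 with no low-count filter, 0 with each limma setting, 0 with the groups alone, 2 with the replicate block and 1 without both libraries. The replicate block moved no other count by over 1.5 times. Shares over all genes moved between settings too, and where none is printed a count does not set the members apart from all genes. The cause was not tested.

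Leaving out 1 library at a time gave 32 to 33 (WT day 5), 32 to 34 (WT day 10), 1 to 5 (KO day 5), 18 to 25 (KO day 10), 0 to 6 (WT day 10 against day 5), 0 (KO day 10 against day 5), 25 to 32, 0 to 2 and 0 to 21 (KO against WT at days 0, 5 and 10), and 0 to 21, 0 to 16 and 0 (response differences at day 5, day 10 and between them). With 4 libraries a group, differences of Phf11a, Oas3 and the interferon ligands rest on few counts.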

Other observations

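Igj, the immunoglobulin J chain of plasma cells, was higher in KO on all 3 days: 3.18 ± 0.57 at day 0, 2.84 ± 0.54 at day 5 and 2.60 ± 0.53 at day 10 (log2, adjusted p = 0.00229, 0.0265 and 0.0165 by edgeR). It had 4.50, 1.70, 4.93 and 3.61 CPM in WT day 0 and 16.3, 41.4, 16.1 and 60.3 CPM in KO day 0. Cd8a, a marker of cytotoxic T cells, was higher in KO at day 0 (1.94 ± 0.41) and at day 10 (1.83 ± 0.38, adjusted p = 0.0170), and not called at day 5 (0.63 ± 0.38). Without WT day 10 replicates 2 and 3 the day 10 values were 2.01 for Igj (adjusted p = 0.265) and 1.81 for Cd8a (0.0628). At day 0, 6 of 8 T and NK cell markers (list median 2.33) and 2 of 5 B and plasma cell markers (1.46) were higher in KO. Of all genes, 3.65% were called higher there. Under obstruction, no other marker of these 2 lists was called between genotypes. Cd8a was the only 1 of 8 T and NK cell markers called at day 10, where the list median was -0.05. Igj was the only 1 of 5 B and plasma cell markers called at day 5 and day 10, with list medians of 0.38 and 0.24.

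Siglech, a lectin of plasmacytoid dendritic cells, had 1, 1, 1 and 0 counts in the WT day 0 libraries and 7, 11, 15 and 11 in the KO day 0 libraries (adjusted p = 0.00106). It had 17, 34, 19 and 18 counts in WT day 5 and 22, 9, 11 and 17 in KO day 5. Siglech was the only 1 of 5 tested plasmacytoid dendritic cell markers called between genotypes at day 0. The summed level of the list overlapped there, at 2.15 to 7.36 CPM in WT and 4.65 to 7.17 CPM in KO. Igj, Cd8a and Siglech were chosen from the marker lists after their values were seen.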
